A study of Capra hircus with 6 samples.

Results

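Interferon response genes are the genes that cells switch on when they meet interferon, together with the factors that carry the signal. A list of 38 such genes was chosen by symbol, and 36 of them were found among the 26951 genes of the table (IFIT1 and USP18 were not listed under those symbols). Where a gene had several transcript rows, the row with the most reads over all libraries was used. In the black-coated skin of these goats the genes stood at very different levels from library to library, and the difference between coat colours was small beside that spread.

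Interferons are secreted by cells that sense viral nucleic acid or by activated immune cells. Type I and type III interferons bind receptors that use the kinases JAK1 and TYK2 to phosphorylate STAT proteins such as STAT2, which with IRF9 binds interferon-stimulated response elements, while IRF1 drives many targets of type II interferon. The genes so induced include sensors of RNA, proteins that block viral entry, translation or replication, the ubiquitin-like protein ISG15, and the machinery that loads peptides on MHC class I molecules. In skin, keratinocytes, fibroblasts and resident or infiltrating leukocytes can all respond, and healthy skin keeps a low tonic level of these transcripts. Roles named below are those known from human and mouse.

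RNA was sequenced from skin with its hair follicles, from 3 black-coated and 3 white-coated samples of crosses between Boer and Macheng Black goats, whose labels describe a dark head on a pale body. The replicates are called black 1 to 3 and white 4 to 6. Neither the body site, the age nor the number of animals is given. A p-value here therefore reflects the spread among these samples alone, which could be partly technical. Coat colour cannot be told apart from body site, and sex was not balanced between the colours, as described below. The libraries held 12648817 to 22085079 reads on named genes.

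Libraries of black-coated skin were not alike in other ways. A gene described as Y-linked (LOC108634721) had 1, 688 and 0 reads in black 1 to 3, against 934, 801 and 767 in white 4 to 6. More than 1 animal therefore lay behind the black samples. By this 1 gene, sex differed among the black samples and was not balanced between the colours. A part of sex in the colour difference was not tested. Black 1 held few hair transcripts, with markers of the hair shaft and inner root sheath summing to 879 CPM (counts scaled to library size), against 13015 to 17501 in the other 5 libraries. Its markers of leukocytes were the highest of all libraries, and they are given beside the results below. Results that rest on black 1 are given with and without it.

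No interferon response gene passed the test for a difference between black-coated and white-coated skin. The test was edgeR's quasi-likelihood test at an adjusted p of 0.05 (Benjamini-Hochberg over all 15778 genes tested), and 35 of the 36 members had enough reads to enter it. It called none of the 35, with an adjusted p of 1 for each, and none of all genes (0% higher and 0% lower in black-coated skin). At an unadjusted p under 0.05 it held 3 members, all with the higher mean in black-coated samples, beside 536 of all genes (3.4%; 1.65% higher and 1.75% lower in black-coated skin). DESeq2 called 43 genes higher (0.273%) and 35 lower (0.222%), none of them a member, and its smallest adjusted p among the members was 0.592.

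The direction of the means leaned one way. Of the 35 tested members, 32 had a higher black-coated mean, against 53% of all genes. The median log2 fold change of the members, black over white, was 0.32, beside 0.02 over all genes tested, and single members lay between -0.07 and 1.49. The size of this lean depended on the libraries included. Without black 1 the median was 0.18 and 24 members had the higher mean in black-coated skin, and without black 2 the values were 0.20 and 24. Without black 3 they were 0.57 and 35, and without white 4 they were 0.51 and 35.

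Groups that did not overlap were found for 2 members, ADAR and STAT2, both higher in every black library (3.81% of all genes did so in that direction), and for 0 members in the other (4.99% of all genes). With a library left out, the members higher in every black library numbered 3 without black 1 (13.6% of all genes), 2 without black 2 (9.21%), 15 without black 3 (11.1%), 6 without white 4 (8.58%), and 2 each without white 5 (6.20%) and white 6 (5.501%). In the other direction there were 2 members without black 2 (9.79% of all genes) and none in the other 5 settings. Leaving out 1 library of 3 makes separation easier for any gene, which is why the share over all genes is given with each count.

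**Figure D1:**
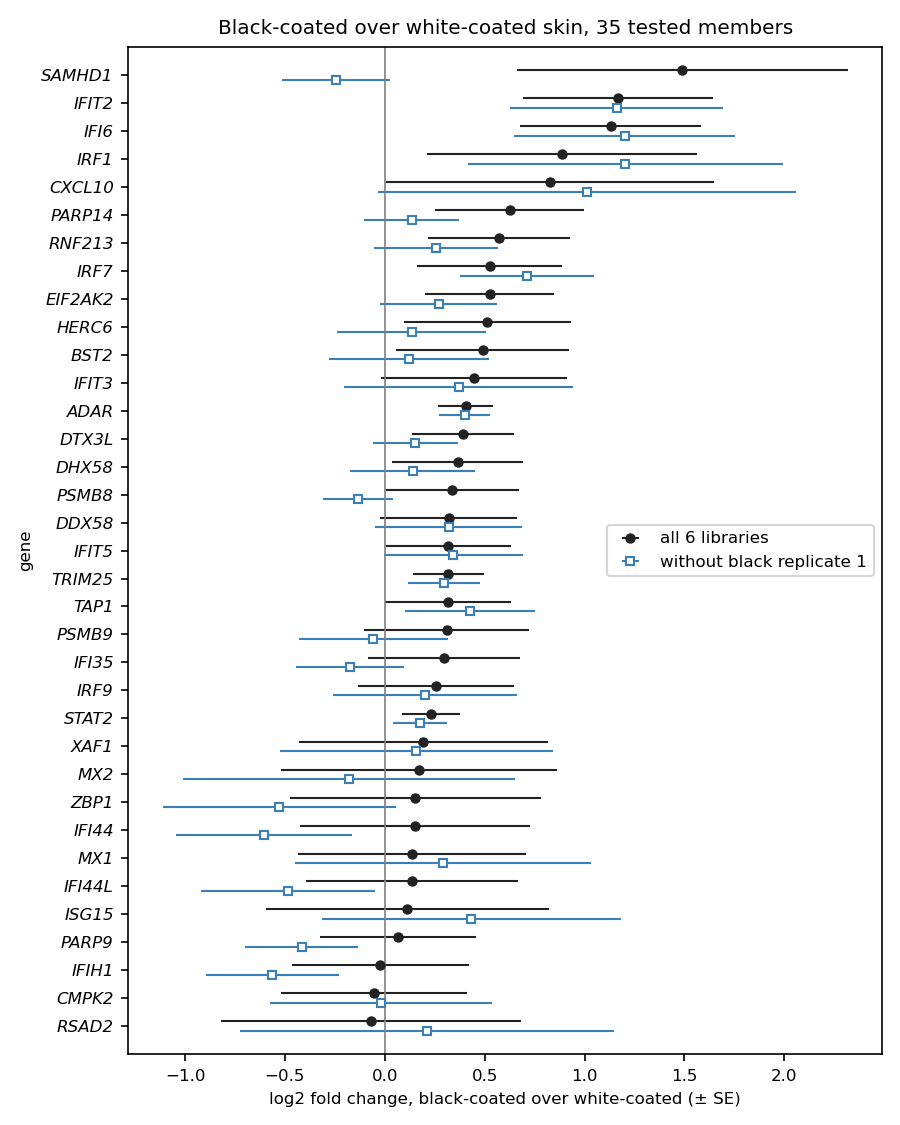
Log2 fold change, black-coated over white-coated skin, with its standard error for each of the 35 tested members, from edgeR with all 6 libraries (filled circles) and without black replicate 1 (open squares). With all libraries the values lie between -0.07 and 1.49, and without black replicate 1 the value of SAMHD1 is -0.24 in place of 1.49.

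The larger pattern was among the libraries. The median member spanned 1.52 log2 units among the black libraries and 0.59 among the white ones, against 0.81 and 0.42 for the median gene. Relative to each gene's mean over all 6 libraries, the median member stood at 0.59, 0.36 and -0.59 log2 units in black 1 to 3, against 0.24, -0.24 and -0.33 in white 4 to 6. Black 1 and black 2 were therefore high and black 3 low, with white 4 the highest of the white libraries. Summed over the tested members, the level was 1297, 1606 and 709 CPM in black 1 to 3, against 1088, 784 and 790.4 CPM in white 4 to 6.

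Counts of members also put black 3 lowest, while the measures differed in which of black 1 and black 2 was higher. Black 3 was the lowest black library for 32 of 35 members (29.1% of all genes), and the lowest of all 6 libraries for 21 (18.2% of all genes). Black 1 exceeded every white library for 25 members (36.5% of all genes), black 2 for 23 (30.8%) and black 3 for 3 (29.1%). White 4 was the highest white library for 28 members, against 39.7% of all genes. The 3 members for which black 3 was not the lowest black library were ADAR, IRF7 and PSMB8.

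**Figure D2:**
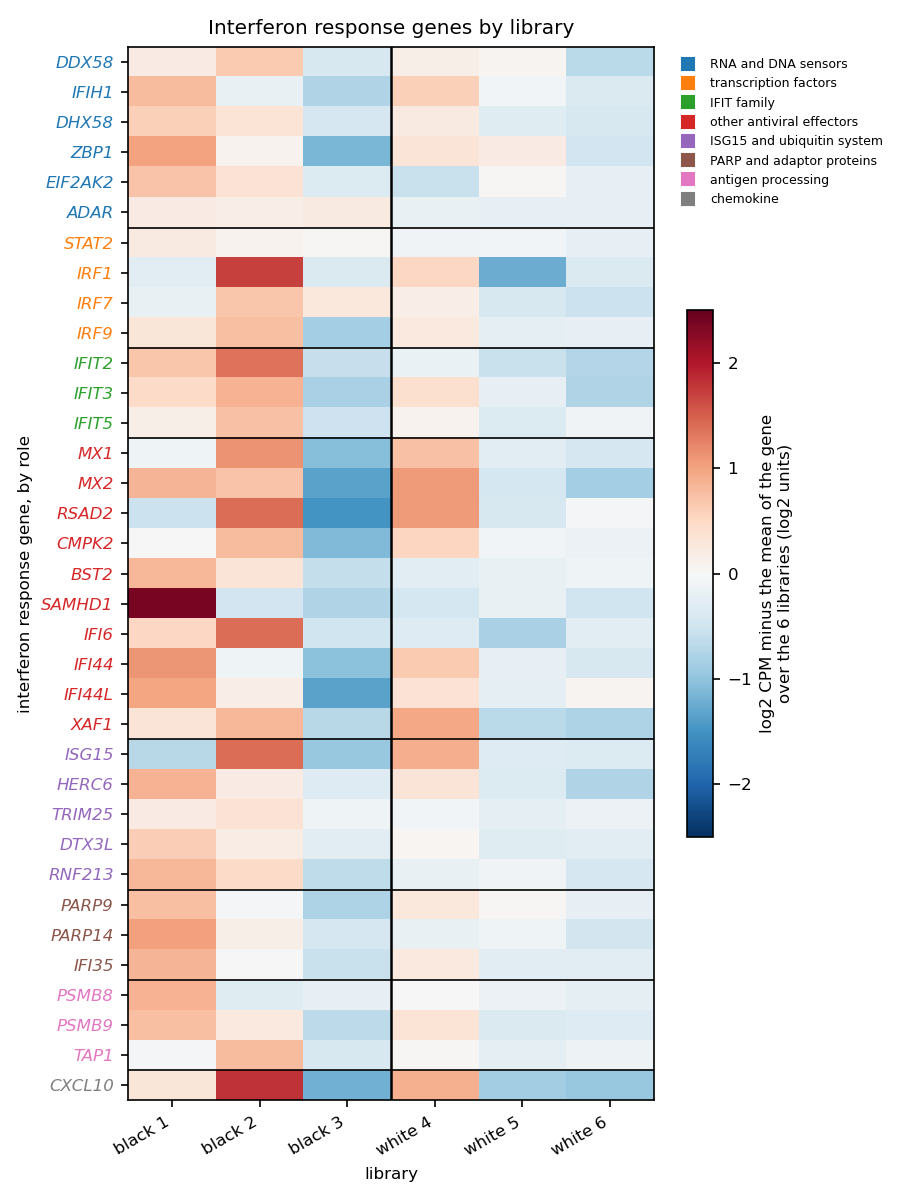
Log2 CPM of each of the 35 tested members minus its mean over the 6 libraries, with genes in rows grouped by role and libraries in columns, black-coated to the left of white-coated. Columns black 1 and black 2 are mostly above each gene's mean, black 3 mostly below it, and white 4 is the highest white library for 28 members.

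Interferons themselves were almost without reads. By their descriptions 59 genes of the table encode interferons, 2 of them had any read, and those reads came to 10 in all. IFNE, an epithelial type I interferon in mammals, had 4 reads in black 3 and 2 in white 4, and IFNG, the type II interferon of T and NK cells, had 1 read in black 1, 2 in white 4 and 1 in white 6. The other 57, among them all genes described as alpha, beta, omega, tau, kappa and lambda, had none, which allows up to 3 reads per library, or 0.13 to 0.215 CPM. These limits cover counting error only, and reads of near-identical interferon copies may not have been counted.

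Of the genes between interferon and its targets, 11 encode receptors, kinases and STATs, and all 11 were tested. None was called, and 9 had a higher black-coated mean, as did 53% of all genes. STAT3, which answers IL6 family cytokines and also type I interferon, stood at 237, 148 and 159 CPM in black 1 to 3, against 137, 131 and 121 CPM in white 4 to 6 (log2 fold change 0.49 ± 0.23 SE). IL10RB, a receptor chain shared by IL10 and type III interferon, stood at 34.9, 39.1 and 32.6 CPM in black-coated skin, against 28.8, 28.2 and 27.6 CPM in white-coated skin. For both genes the groups did not overlap, as for 3.81% of all genes in that direction. IFNAR1, a chain of the type I receptor, was high in black 1 alone, with 78.0 CPM, while black 2 and 3 had 39.0 and 37.8 CPM, against 31.8 to 46.9 CPM in white-coated skin.

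Transcription factors among the members were STAT2, IRF1, IRF7 and IRF9, and none was called. STAT2, the STAT that is specific to type I and type III signalling, stood at 77.5, 70.9 and 67.7 CPM in black 1 to 3, against 62.6, 63.5 and 58.0 CPM in white 4 to 6. The groups did not overlap, the log2 fold change was 0.23 ± 0.15 SE, and the unadjusted p of edgeR's quasi-likelihood test was 0.159. STAT2 also had the smallest ratio of highest to lowest library among the members, at 1.34-fold.

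IRF1 stood at 29.98, 119 and 28.2 CPM in black 1 to 3, against 51.9, 15.2 and 28.2 CPM in white 4 to 6. A single library, black 2, stood far above the rest, and black 1 and black 3 lay inside the white range. The log2 fold change was 0.89 ± 0.68 SE with all libraries and -0.14 without black 2. IRF9, the DNA-binding partner of STAT2, and IRF7, which amplifies type I interferon, were also highest in black 2. IRF9 spanned 30.3 to 92.0 CPM in black-coated skin, against 46.6 to 65.1 CPM in white-coated skin, and IRF7 spanned 4.54 to 8.31 CPM, against 3.54 to 5.80 CPM.

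Sensors of foreign or altered nucleic acid gave 6 members, all tested and none called, and 5 had a higher black-coated mean. ADAR, the enzyme that deaminates adenosine in double-stranded RNA and so keeps self RNA from being sensed, stood at 98.9, 95.5 and 99.9 CPM in black 1 to 3, against 74.6, 74.2 and 73.5 CPM in white 4 to 6. Replicates within each colour were close and the groups were well apart. Means were 98.1 ± 2.32 CPM in black-coated and 74.1 ± 0.596 CPM in white-coated skin (SD, n = 3 each). The log2 fold change was 0.40 ± 0.14 SE, with an unadjusted p of 0.0218 and an adjusted p of 1 by edgeR's quasi-likelihood test.

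ADAR was the only member highest in black 3, so it did not follow the order of libraries that most members showed. Without black 1 its log2 fold change was also 0.40, with an adjusted p of 0.405. When the deposited FPKM, which are fragment counts scaled to transcript length and library size, of the chosen row were used in place of counts, with a pseudocount of 1, the value was -0.03. The FPKM of a gene are divided among its rows, and ADAR has 7 of them. Summed over the rows, ADAR stood at 12.4 ± 1.55 FPKM in black-coated and 9.11 ± 0.62 FPKM in white-coated skin (SD, n = 3 each).

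ZBP1, a sensor of Z-form nucleic acid that can start necroptosis, was the least abundant tested sensor, at 2.48, 1.29 and 0.519 CPM in black 1 to 3, against 1.53, 1.41 and 0.849 CPM in white 4 to 6. Both extremes were black libraries, and the log2 fold change was 0.15 ± 0.63 SE with all libraries and -0.53 without black 1. The RNA helicases DDX58 (RIG-I), IFIH1 (MDA5) and DHX58 (LGP2) and the kinase EIF2AK2 (PKR), which halts translation when it binds double-stranded RNA, ranged from 9.65 to 28.3 CPM in black-coated skin, against 9.27 to 24.8 CPM in white-coated skin. IFIH1, DHX58 and EIF2AK2 were highest in black 1, and DDX58 in black 2.

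The IFIT proteins bind viral RNA ends and block its translation. All 3 IFIT members of the table were tested, none was called, and each was highest in black 2 and had a higher black-coated mean. IFIT2 stood at 19.8, 31.4 and 8.13 CPM in black 1 to 3, against 10.8, 8.27 and 7.29 CPM in white 4 to 6. Black 1 and 2 lay above all white libraries and black 3 inside their range. Its log2 fold change was 1.17 ± 0.48 SE, with an unadjusted p of 0.0444 by edgeR's quasi-likelihood test, and 0.65 without black 2.

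IFIT5 stood at 93.7, 139 and 59.0 CPM in black 1 to 3, against 89.1, 66.0 and 78.8 CPM in white 4 to 6, and the highest and lowest libraries were again both black. IFIT3 spanned 21.6 to 69.2 CPM in black-coated skin, against 22.3 to 50.1 CPM in white-coated skin. A gene without a symbol, LOC102168687, is described as IFIT1 and had 67.5, 76.9 and 15.9 CPM in black 1 to 3, against 55.7, 36.8 and 30.01 CPM in white 4 to 6. Among the black libraries it followed the order of the listed IFIT genes. Members of this family resemble each other, as do MX1 and MX2, so reads may be split between copies.

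Other antiviral effectors made the largest role group, with 10 of 11 tested, none called and 8 higher on average in black-coated skin. IFI6, a mitochondrial and endoplasmic reticulum protein that limits cell death and viral replication, stood at 138, 253 and 68.0 CPM in black 1 to 3, against 76.2, 54.7 and 78.6 CPM in white 4 to 6. Black 1 and 2 exceeded every white library and black 3 did not. The log2 fold change was 1.13 ± 0.45 SE, with an unadjusted p of 0.0412 by edgeR's quasi-likelihood test, and 0.55 without black 2.

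MX1 and MX2 encode dynamin-like GTPases that trap viral nucleocapsids. MX1 stood at 56.1, 133 and 29.0 CPM in black 1 to 3, against 102, 50.5 and 45.5 CPM in white 4 to 6. MX2 stood at 19.3, 17.4 and 4.15 CPM in black 1 to 3, against 22.3, 7.86 and 5.87 CPM in white 4 to 6. For both genes white 4 was among the highest libraries and black 3 was the lowest, and the log2 fold changes of 0.14 ± 0.57 SE for MX1 and 0.17 ± 0.69 SE for MX2 were small beside their errors.

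RSAD2 (viperin), a radical SAM enzyme that makes a chain-terminating nucleotide, stood at 13.5, 51.7 and 6.92 CPM in black 1 to 3, against 41.4, 14.9 and 19.2 CPM in white 4 to 6. It spanned 7.47-fold between black 2 and black 3, yet its log2 fold change was -0.07 ± 0.75 SE. CMPK2, the mitochondrial nucleotide kinase encoded next to RSAD2, spanned 9.17 to 34.0 CPM in black-coated skin, against 17.8 to 28.6 CPM in white-coated skin, and was likewise highest in black 2 and lowest in black 3. RSAD2, CMPK2 and IFIH1 were the 3 members whose mean was lower in black-coated skin.

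SAMHD1, the phosphohydrolase that depletes the nucleotides needed for reverse transcription, differed most between the group means. It stood at 50.9, 6.95 and 5.80 CPM in black 1 to 3, against 7.16, 8.57 and 6.86 CPM in white 4 to 6. Black 1 stood alone, and the other 5 libraries were close together. The log2 fold change was 1.49 ± 0.83 SE with all libraries and -0.24 without black 1. Rows of SAMHD1 also differ in their reads, the lowest holding 50.8% of the highest, so its level depends on the row.

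IFI44 and its neighbour IFI44L, interferon-induced proteins that restrain viral growth, were also highest in black 1 and lowest in black 3. IFI44 stood at 14.95, 6.45 and 3.37 CPM in black 1 to 3, against 10.9, 6.04 and 5.24 CPM in white 4 to 6. IFI44L stood at 30.3, 17.3 and 6.06 CPM in black 1 to 3, against 19.6, 12.97 and 16.1 CPM in white 4 to 6. The white libraries lay within the black range for both. Without black 1 the log2 fold changes were -0.60 for IFI44 and -0.49 for IFI44L, against 0.15 and 0.14 with all libraries.

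BST2 (tetherin), which holds budding virions at the cell surface, and XAF1, a factor that favours apoptosis, were low genes with 2.16 to 6.95 CPM in black-coated skin, against 2.26 to 7.67 CPM in white-coated skin. ISG20, an exonuclease that degrades RNA, was too low to test, with 5, 6 and 5 reads in black 1 to 3, against 6, 7 and 0 in white 4 to 6. A difference in ISG20 was not detectable at this depth.

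ISG15 is a ubiquitin-like protein that is joined to other proteins after interferon. It stood at 4.32, 18.7 and 3.63 CPM in black 1 to 3, against 13.3, 5.63 and 5.59 CPM in white 4 to 6. Black 2 was the highest library and white 4 the next, while black 1 and black 3 lay below every white library. The log2 fold change was 0.11 ± 0.71 SE, and -1.05 without black 2. LOC102180290, described as a ubl carboxyl-terminal hydrolase 18, the description used for the enzyme that removes ISG15, had 13.7, 15.8 and 8.26 CPM in black 1 to 3, against 10.2, 11.2 and 10.97 CPM in white 4 to 6.

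Ubiquitin ligases of the list spanned less than ISG15, which differed 5.15-fold between its highest and lowest library. The span was 1.53-fold for TRIM25, 1.89-fold for DTX3L, 2.75-fold for RNF213 and 3.11-fold for HERC6. TRIM25, which modifies RIG-I, stood at 60.0, 66.8 and 48.3 CPM in black 1 to 3, against 49.9, 43.8 and 46.8 CPM in white 4 to 6, with black 1 and 2 above all white libraries and black 3 among them. Its log2 fold change was 0.32 ± 0.18 SE. HERC6, DTX3L and RNF213, a large ligase that ubiquitylates bacteria and lipid-containing structures, were highest in black 1, and together ranged from 6.53 to 72.8 CPM in black-coated skin, against 4.88 to 38.7 CPM in white-coated skin. All 5 tested genes of this group had a higher black-coated mean, and none was called.

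PARP14, an ADP-ribosyltransferase, stood at 40.9, 22.1 and 14.9 CPM in black 1 to 3, against 17.5, 18.4 and 14.5 CPM in white 4 to 6. Black 1 and 2 exceeded all white libraries and black 3 lay within them, and the log2 fold change was 0.62 ± 0.37 SE, or 0.13 without black 1. PARP9, the partner of DTX3L, and IFI35, which binds the interferon-induced protein NMI, were highest in black 1 too, and ranged from 8.39 to 30.3 CPM in black-coated skin, against 12.5 to 19.7 CPM in white-coated skin.

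The members of antigen processing were TAP1, which carries peptides into the endoplasmic reticulum, and PSMB8 and PSMB9, subunits of the immunoproteasome. TAP1 stood at 41.0, 73.7 and 32.1 CPM in black 1 to 3, against 43.0, 35.9 and 38.9 CPM in white 4 to 6, with black 2 alone above the white libraries. The proteasome genes were instead highest in black 1, at 48.8 CPM for PSMB8 and 14.2 CPM for PSMB9. The other 5 libraries held 21.7 to 27.1 CPM of PSMB8 and 5.32 to 10.6 CPM of PSMB9. Log2 fold changes of the 3 genes lay between 0.31 and 0.34, and none was called. Each rested on 1 library, with -0.14 for PSMB8 and -0.057 for PSMB9 without black 1, and -0.11 for TAP1 without black 2.

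CXCL10, the chemokine that draws CXCR3-bearing T cells, had the widest span among the black libraries after SAMHD1. It stood at 11.3, 32.2 and 3.94 CPM in black 1 to 3, against 16.9, 4.99 and 4.67 CPM in white 4 to 6. Black 2 was 8.17-fold above black 3, and white 4 was the highest white library. The log2 fold change was 0.83 ± 0.82 SE, and -0.24 without black 2.

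**Figure D3:**
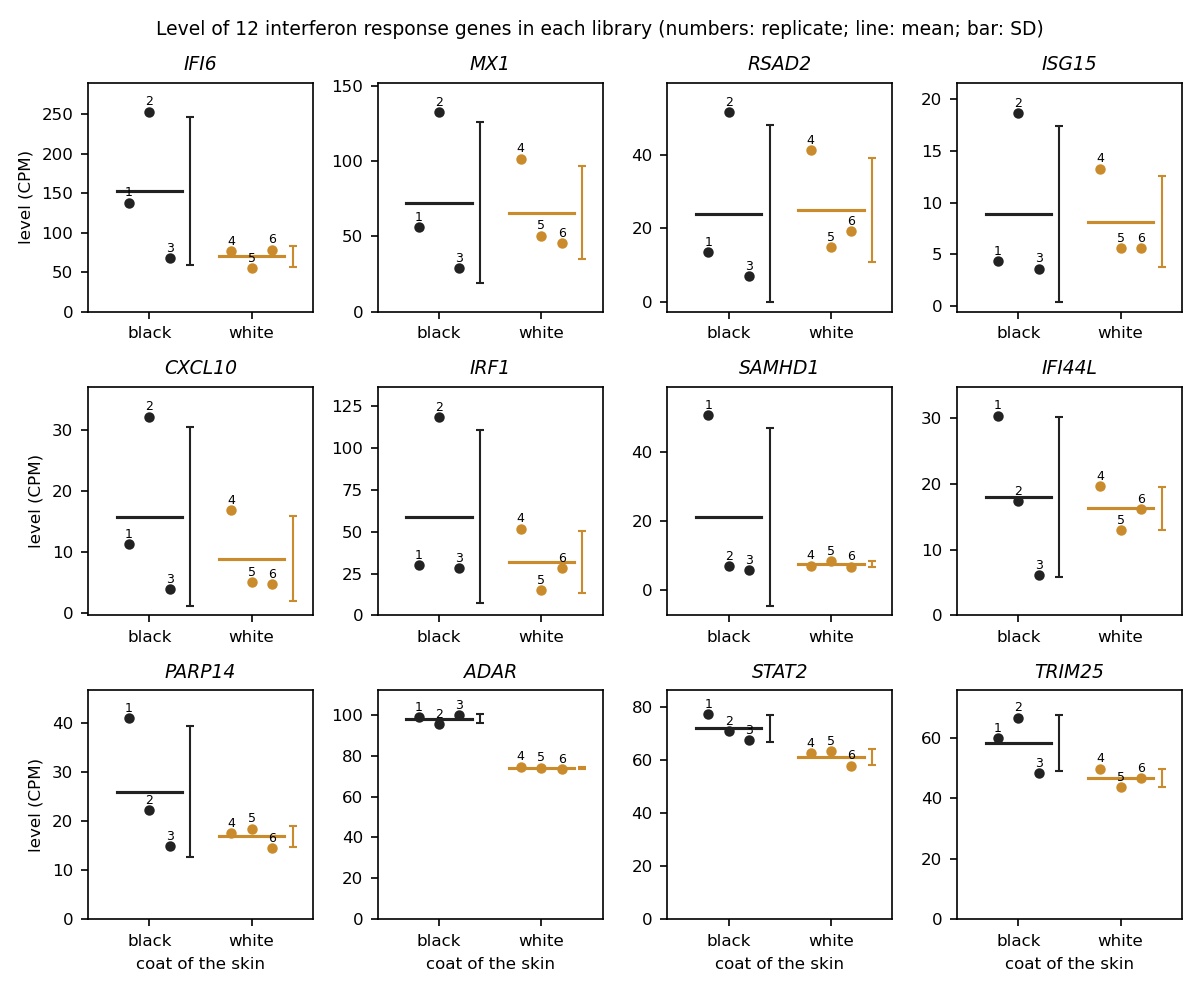
Level in CPM of 12 members in each library, with the replicate number beside each point, the group mean as a horizontal line and the SD as a bar (n = 3 each), black-coated to the left of white-coated. ADAR and STAT2 are separated by colour, SAMHD1 is high in black replicate 1 alone, and IRF1, ISG15, MX1, RSAD2 and CXCL10 are highest in black replicate 2.

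Levels can be compared between genes only per length, and FPKM summed over a gene's rows were used for that. IFI6 stood first by a wide margin, with 200.4 ± 105 FPKM in black-coated and 91.9 ± 15.9 FPKM in white-coated skin (SD, n = 3 each). IFIT5, IRF9 and MX1 followed with means over all 6 libraries of 22.6, 22.0 and 21.3 FPKM, which do not differ beyond their spread. ZBP1 was the lowest tested member, with a mean of 0.392 FPKM.

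Black 1 and black 2 were both high for many members. Of the 35, 15 stood above every white library in both, 10 in black 1 and not in black 2, and 8 in black 2 and not in black 1. Sorted by the highest black library, 18 were highest in black 1 (41.9% of all genes), 16 in black 2 (28.3%) and 1 in black 3 (29.8%). For the 18 members highest in black 1, the medians of log2 CPM over the white mean were 0.93, 0.27 and -0.41 in black 1 to 3. For the 16 members highest in black 2 they were 0.26, 0.95 and -0.55. The members were sorted on these same values, so the medians describe the sets and test nothing. The low level in black 3 was common to both sets.

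The set highest in black 1 held SAMHD1, IFIH1, ZBP1, IFI44, IFI44L, BST2, MX2, the PARP genes, both proteasome subunits and STAT2, among others. The set highest in black 2 held IRF1, IRF7, IRF9, the IFIT genes, MX1, RSAD2, CMPK2, ISG15, IFI6, TAP1 and CXCL10, among others. White 4 was the highest white library for 15 of the 16 members highest in black 2 and for 12 of the 18 highest in black 1, so the 2 sets also differed in count there, which was not tested.

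**Figure D4:**
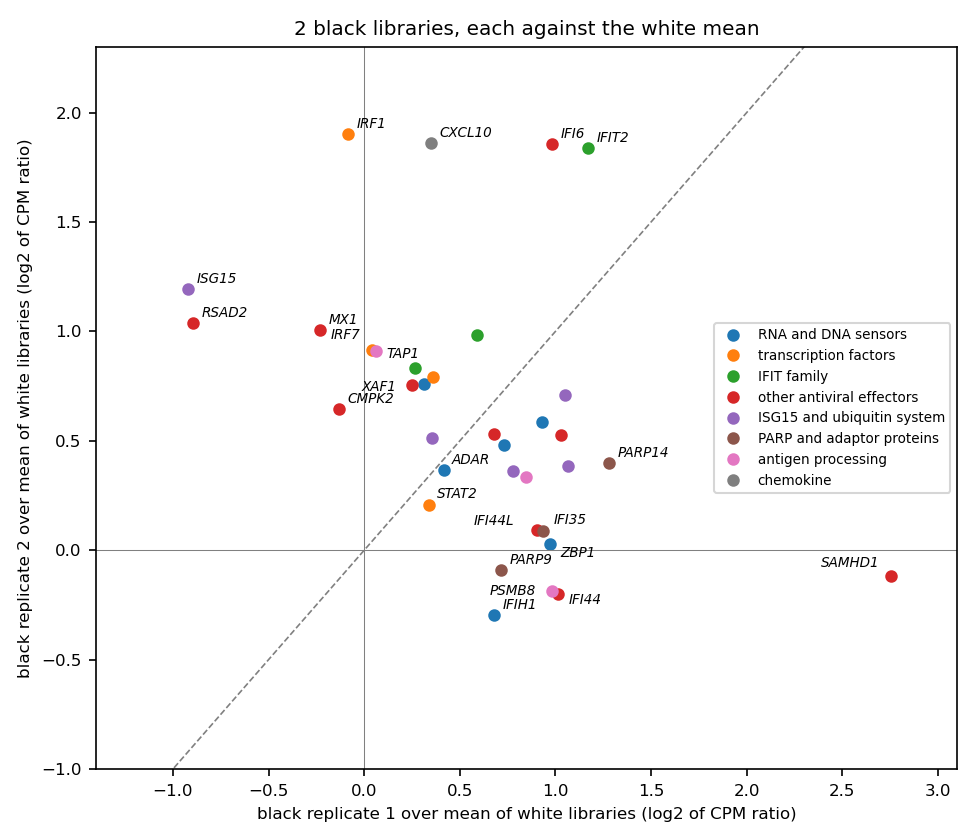
Log2 ratio of CPM in black replicate 1 (x axis) and in black replicate 2 (y axis) to the mean of the white libraries, for the 35 tested members coloured by role, with the dashed line marking equal ratios. SAMHD1 lies far to the right at 2.76 on the x axis and -0.12 on the y axis, while ISG15 and RSAD2 lie at the upper left.

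Several members sit side by side in the goat genome. In the RefSeq annotation of assembly ARS1.2, used here for gene order only, all 36 members were found and 15 of them had another member as a near neighbour. The adjacent genes were MX2 and MX1, RSAD2 and CMPK2, IFI44L and IFI44, IFIT3 and IFIT2 with IFIT5 beyond 1 further gene, PARP9, DTX3L and PARP14 in a row, and PSMB9, TAP1 and PSMB8 in a row. Neighbours did not always share a library profile. TAP1 was highest in black 2 while the proteasome genes on either side were highest in black 1, and MX1 was highest in black 2 while MX2 was slightly higher in black 1. The sources used here do not state whether counting used strand, so reads of overlapping neighbours cannot be told apart.

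A further 104 genes of the pathway were listed, and 75 of them were tested. Not all of the others were too low to test, as some were not found under those symbols. Of 66 other interferon-stimulated genes listed, 46 were found by symbol and 43 were tested. None of the 75 was called, 60 had a higher black-coated mean (53% of all genes did) and 15 a lower one. The median log2 fold change of the 75 was 0.23. The groups did not overlap for 6 of these genes higher in black-coated skin (3.81% of all genes) and for 1 lower (4.99% of all genes). At an unadjusted p under 0.05 by edgeR's quasi-likelihood test there were 4, beside 3.4% of all genes. SOCS3, a feedback inhibitor of JAK kinases, stood at 12.8, 8.38 and 26.2 CPM in black 1 to 3, against 3.81, 4.93 and 7.502 CPM in white 4 to 6, so the groups did not overlap (log2 fold change 1.55 ± 0.48 SE, unadjusted p = 0.0148 by edgeR's quasi-likelihood test). Unlike most members, SOCS3 was highest in black 3. Of the 7 negative regulators 4 had a higher black-coated mean and 3 a lower one. The next of them by p were PTPN6, a phosphatase, with a log2 fold change of 0.66 ± 0.35 SE, and SOCS1, with 0.39 ± 0.44 SE.

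CXCL9, which shares the receptor CXCR3 with CXCL10, had its lower values in black-coated skin. It stood at 3.69, 6.09 and 3.503 CPM in black 1 to 3, against 13.8, 7.16 and 12.4 CPM in white 4 to 6, without overlap (log2 fold change -1.33 ± 0.38 SE, unadjusted p = 0.00924 by edgeR's quasi-likelihood test). CXCL10 itself overlapped between the colours, higher on average in black-coated skin. IDO1, a tryptophan-degrading enzyme induced mainly by type II interferon, stood at 6.31, 19.5 and 1.99 CPM in black 1 to 3, against 2.67, 1.53 and 2.34 CPM in white 4 to 6, with black 3 inside the white range. LGALS3BP, a secreted glycoprotein that binds galectins, stood at 64.8, 59.9 and 38.8 CPM in black 1 to 3, against 44.8, 21.8 and 28.8 CPM in white 4 to 6. Of the 43 tested genes in this list of other interferon-stimulated genes, 36 had a higher black-coated mean, against 53% of all genes.

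Genes that sense nucleic acid upstream of interferon numbered 14, all tested and none called. Of these 11 had a higher black-coated mean, against 53% of all genes. UNC93B1, which brings endosomal Toll-like receptors to their place, stood at 85.9, 60.7 and 58.8 CPM in black 1 to 3, against 52.4, 50.5 and 52.1 CPM in white 4 to 6. TRAF3, a ligase below those receptors and below MAVS, stood at 22.0, 28.2 and 22.5 CPM in black 1 to 3, against 16.8, 17.5 and 21.1 CPM in white 4 to 6. These 2 genes had groups without overlap (3.81% of all genes in that direction) and log2 fold changes of 0.41 ± 0.19 SE and 0.39 ± 0.20 SE. MYD88, the adaptor of most Toll-like receptors, overlapped, with 55.6 to 68.3 CPM in black-coated skin, against 50.5 to 56.2 CPM in white-coated skin.

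Some interferon-stimulated families carry only locus names in the table, and 23 such genes were read by their descriptions. Of these 14 were tested and none was called. Among the black libraries 11 of the 14 were highest in black 2 and 3 in black 1, and 13 were lowest in black 3. LOC102190983, described as oligoadenylate synthase 3, which makes the activator of RNase L, had 51.5, 128 and 25.3 CPM in black 1 to 3, against 63.7, 47.9 and 43.3 CPM in white 4 to 6. LOC102170144, described as guanylate-binding protein 1, had 13.1, 54.4 and 6.79 CPM in black 1 to 3, against 27.2, 13.7 and 11.6 CPM in white 4 to 6. Both were highest in black 2 and lowest in black 3, like MX1 and RSAD2, but not every gene of these families was. LOC102180655, described as the membrane protein IFITM3, was highest in black 1, with 75.5, 73.0 and 38.8 CPM in black 1 to 3, against 63.8, 43.0 and 46.3 CPM in white 4 to 6. LOC106501751, described as similar to IFITM1, and LOC102186893, described as oligoadenylate synthase 2, were highest in white 4. LOC108633177, described as similar to guanylate-binding protein 6, was lowest in white 6.

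Leukocyte markers also differed among the libraries. The 4 markers of all leukocytes summed to 676, 225 and 97.2 CPM in black 1 to 3, against 212, 158 and 159 CPM in white 4 to 6. The 11 tested markers of macrophages and dendritic cells, of 12 listed, summed to 1189.8, 531 and 183 CPM in black 1 to 3. In white 4 to 6 the sums were 278, 269.8 and 269.4 CPM. Among the black libraries the members' median had this order, while the members' sum was highest in black 2. CD68, CSF1R, AIF1, MRC1, C1QA, C1QB, C1QC and FLT3 were lowest in black 3. CD14 and MSR1 were instead higher in every black library than in any white one, as were 3.81% of all genes. In black 3 they stood at 41.5 and 5.32 CPM, against 31.6 to 36.7 and 3.47 to 5.02 CPM in white-coated skin. CD207, the marker of Langerhans cells, was low throughout, at 0.85 to 1.99 CPM in black-coated and 1.63 to 4.43 CPM in white-coated skin. In bulk RNA, fewer cells of a type and less RNA per cell cannot be told apart.

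T and NK cell markers gave another order. The 7 tested of 9 listed summed to 65.7, 13.2 and 13.4 CPM in black 1 to 3. In white 4 to 6 the sums were 47.6, 24.7 and 22.4 CPM, so white 4 was the white library with most. The markers were not alike in black 2. CD3D, CD3E, CD3G, CD2 and CD8A were lowest there, and CD4 and NKG7 were lowest in black 3. NKG7 stood at 4.23 CPM in black 2, against 6.37, 3.81 and 3.47 CPM in white 4 to 6. GZMA of this list was near 0 in every library, with at most 0.23 CPM. Mast cell markers summed to 268, 47.1 and 52.0 CPM in black 1 to 3, against 87.8, 62.4 and 33.5 CPM in white 4 to 6. In black 2 and 3 most of the sum was KIT, at 35.2 and 43.0 CPM. CPA3, MS4A2 and HDC were each highest in black 1, and each lower in black 2 and 3 than in any white library. CPA3 stood at 8.88 and 6.44 CPM in black 2 and 3, against 38.1, 18.5 and 11.3 CPM in white 4 to 6. Markers of B and plasma cells (3 of 7 tested) summed to 58.3, 6.16 and 39.3 CPM in black 1 to 3, against 17.6, 9.62 and 8.56 CPM in white 4 to 6, and those of granulocytes (3 of 5 tested) to 25.7, 12.8 and 19.6 CPM, against 11.7, 11.6 and 6.86 CPM. Of these granulocyte markers, S100A8 and S100A9 were highest in black 1, and CXCR2 in black 3. In black 1 and 2 CXCR2 stood at 8.01 and 7.74 CPM, inside the white range of 5.38 to 8.86 CPM.

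Markers of resident skin cells differed among libraries as well. The 5 fibroblast markers had medians of 0.41, 0.82 and -1.51 log2 units in black 1 to 3, relative to each gene's mean. In white 4 to 6 the medians were -0.25, 0.05 and 0.32. Summed, these markers stood at 28729, 108786 and 18520 CPM in black 1 to 3, against 44270, 91597.5 and 105719 CPM in white 4 to 6. The 2 measures differed for black 1, which was high by the median and below every white library by the sum. DCN, LUM and PDGFRA were highest in black 1. COL1A1 and COL1A2 were lower there, at 10482 and 11744 CPM, than in any white library. Black 3 was the lowest library by both measures. All 6 markers of epidermal keratinocytes had the lower mean in black-coated samples, with a median log2 fold change of -2.22, but they were not alike. KRT5 and KRT14 differed little, with log2 fold changes of -0.22 ± 0.57 SE and -0.015 ± 0.66 SE. The other 4, KRT1, KRT10, KRTDAP and LOR, lay between -3.32 and -1.85. Those 4 had an unadjusted p under 0.05 by edgeR's quasi-likelihood test, none passing it adjusted. LOR, a protein of the cornified layer, stood at 3.54, 2.29 and 2.68 CPM in black 1 to 3, against 29.0, 14.4 and 7.502 CPM in white 4 to 6. The 4 endothelial markers summed to 941, 534 and 626 CPM in black 1 to 3, against 654, 701 and 721 CPM in white 4 to 6. The part of any of these cell types in the members' levels was not tested.

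**Figure D5:**
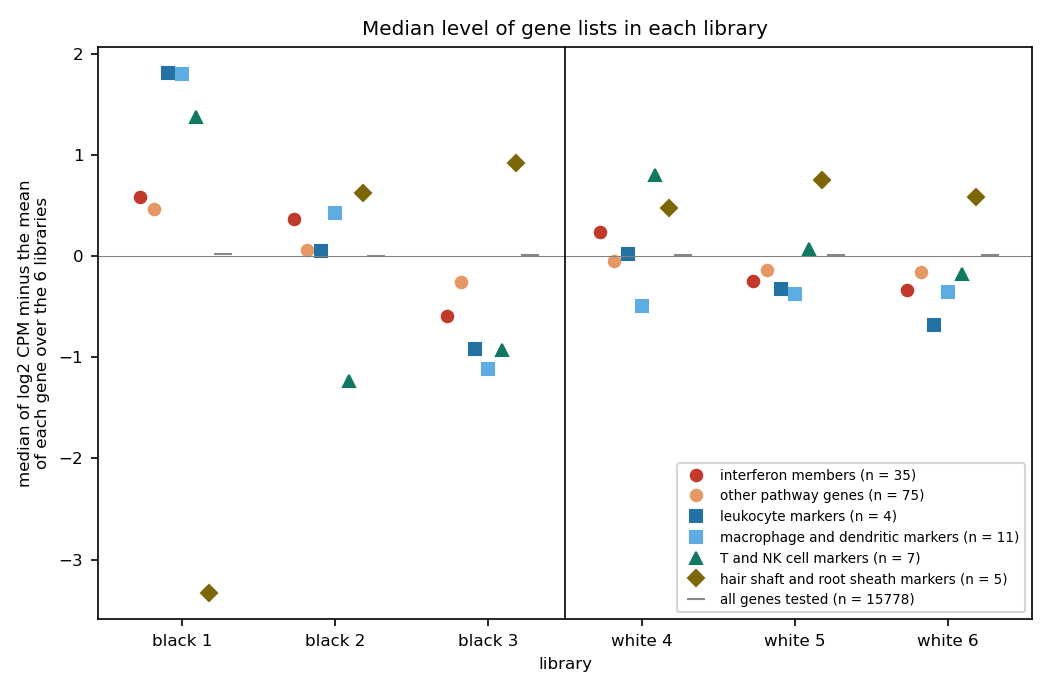
Median over the tested genes of each list of log2 CPM minus each gene's mean over the 6 libraries, with libraries along the x axis, black-coated to the left of white-coated. Interferon members stand at 0.59, 0.36 and -0.59 in black 1 to 3, against 0.24, -0.24 and -0.33 in white 4 to 6, while T and NK cell markers are low in black 2 and hair markers are low in black 1.

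With black 1 left out, 14 genes were called higher (0.0874%) and 2 lower (0.0125%) in black-coated skin by edgeR's quasi-likelihood test over 16022 genes, and no member was among them. The mean turned for 10 members, 9 of them to lower in black-coated skin (ZBP1, MX2, SAMHD1, IFI44, IFI44L, PARP9, IFI35, PSMB8 and PSMB9) and RSAD2 to higher. Without black 2 it also turned for 10, among them MX1, IRF1, IRF9, IFIT5, ISG15, TAP1 and CXCL10. Among the members with values per library, ADAR, STAT2, TRIM25, IFIT2, IFI6 and PARP14 had a higher black-coated mean whichever library was left out. Their log2 fold changes spanned 0.39 to 0.42 for ADAR, 0.18 to 0.28 for STAT2, 0.20 to 0.44 for TRIM25, 0.65 to 1.55 for IFIT2, 0.55 to 1.49 for IFI6 and 0.13 to 0.90 for PARP14. The same held for DDX58, DHX58, EIF2AK2, IRF7, IFIT3, BST2, HERC6, DTX3L and RNF213. The share of all genes that kept their direction was not counted.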

How the data were processed

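Total RNA depleted of ribosomal RNA was sequenced, per the labels' protocols. The authors deposited read counts and FPKM per transcript row (53266 rows). Bowtie2 2.0.6, HISAT2 and Cufflinks are named in the submitters' processing notes, without roles. The genome build is not given in the sources used here. The row with the most reads stood for the gene, since rows of a gene overlap in reads: for 12 of the 16 members with several rows the lowest row held at least 90% of the highest, and for SAMHD1, ZBP1, RNF213 and IFI44 it held 50.8 to 85.4%. In contrast, FPKM were summed over rows. The 189 rows without a gene name (0.00376 to 0.0675% of reads) and 1770 tRNA rows were left out.

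The test between colours, black over white with 3 libraries each and no covariate, was the robust quasi-likelihood fit of edgeR 4.0.16 (R 4.3.3) on these counts after filterByExpr and TMM scaling. CPM use TMM-scaled library sizes. Log2 levels use a prior count of 1. The biological coefficient of variation was 37.3%. Alternatives used DESeq2 1.42.0, limma 3.58.1 (voom, and trend on log2 FPKM), other scalings and filters, the median row, and each library left out. Fits were tested on simulated data.

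Members and lists were chosen with earlier results of these data known. Values per library are given for members with the 12 widest spans among black libraries, the 5 smallest p, or the highest mean of their role, and for pathway genes with the 3 smallest p of each list. Locus-named genes, interferon genes by description and the row-summed FPKM test were added after the data were seen.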

Additional observations from a re-analysis of the deposited data

How the results depend on the processing

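No member was called under any of the alternatives run. All 35 tested members had the higher mean in black-coated samples without black 3 or white 4, and 24 did without black 1 or 2. The higher mean in black-coated samples was found for 25 members by limma-voom (46.7% of all genes). Members without overlap, higher in black-coated skin, numbered 1 under library totals (3.62% of all genes) and under both single-row FPKM tests (4.73%), and in both directions 2 to 15 with a library left out (5.501 to 13.6% of all genes higher, 7.33 to 14.5% lower). Genes called numbered 78 by DESeq2 (43 higher, 35 lower), 1 higher by limma on log2(FPKM + 0.1), and 0 to 16 with a library left out (0 to 14 higher, 0 to 4 lower; 16 without black 1, 6 without black 2, 1 without white 4). Signs turned under limma-voom for ZBP1 (-0.18), MX1 (-0.058), MX2 (-0.054), IFI44 (-0.16), IFI44L (-0.26), ISG15 (-0.29) and PARP9, 7 members in all. With log2(FPKM + 1) they turned for ZBP1 (-0.051), ADAR (-0.034), IFI44L (-0.14), ISG15 (-0.11), EIF2AK2, PARP9 and PSMB8, 7 in all, and with a pseudocount of 0.1 for ZBP1 (-0.36), IFI44L (-0.25), ISG15 (-0.12) and the same EIF2AK2, PARP9 and PSMB8, 6 in all. With row-summed FPKM, added after seeing the data, they turned for MX1 (-0.015), IFI44L (-0.19) and ISG15 (-0.11). The cause was not tested. With a library left out, log2 fold changes spanned -0.53 to 0.57 for ZBP1, -0.64 to 0.59 for MX1, -0.18 to 0.98 for MX2, -1.31 to 0.49 for RSAD2, -0.24 to 1.93 for SAMHD1, -0.60 to 0.54 for IFI44, -0.49 to 0.55 for IFI44L, -0.14 to 1.44 for IRF1, -0.040 to 0.58 for IFIT5, -1.05 to 0.66 for ISG15, -0.11 to 0.55 for TAP1 and -0.24 to 1.70 for CXCL10. No paired analysis was possible because the colours share no replicate number. Depth limits ISG20 and the interferon genes.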
